A study of Mus musculus with 6 samples.

Results

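The cornified envelope genes were taken as every gene of the 6 profiled sections whose symbol began with Lce or Sprr and a digit, together with Flg, Flg2, Lor, Ivl, Hrnr, Rptn and Tchh. The files held 39 such genes among 19378 in all: 21 Lce genes (late cornified envelope proteins), 13 Sprr genes (small proline-rich proteins) and Flg2, Lor, Ivl, Hrnr and Rptn. Flg and Tchh were not analysed here. The sections did not hold the same genes. Of the 39, the arthritis paw held 8, the control paw 39, the brain 11, and the embryo sections 35 (H3K27me3), 34 (H3K27ac) and 27 (H3K4me3). Of all 19378 genes, the arthritis paw held 11130, the control paw 19378 and the brain 11345. The embryo sections held 19046, 18943 and 18066, in the same order of marks. Only Lce1g, Lce3c, Rptn, Sprr1a, Sprr2a3, Sprr2e and Sprr2h, 7 genes, were held by all 6.

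Sections of mouse tissue lay on arrays printed with position barcodes, where an antibody to a histone mark directed the Tn5 transposase to marked chromatin, so that reads were counted by gene and by spot. The arthritis paw (H3K27ac) came from the collagen-induced arthritis (CIA) model in the adult mouse and the control paw (H3K27ac) from an adult control, both labelled 42 days. Both paws were fixed, decalcified, halved, embedded in paraffin and cut at 4 µm around the talus, an ankle bone. The brain (H3K4me3) was adult and wild-type and was cut frozen at 20 µm, and whole wild-type embryos at E11.5, cut frozen at 16 µm, gave 1 section each for H3K27me3, H3K27ac and H3K4me3. Each group was 1 section, so no difference below could be set against a spread between animals and no test was possible. All intervals belong to single genes or sums of reads, are 95% counting intervals and cover counting error only; medians are given without one.

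The arthritis and control paws held 5344438 and 5981684 reads in 943 and 554 spots, the brain 2036521 reads in 1200 spots, and the embryo sections 403483 to 749650 reads in 248 to 254 spots. Reads here are numbers recovered from the ranks of the deposited values. The tissue labels could be checked only in part. In the arthritis paw 3 of 7 markers of basal keratinocytes were held, with a median percentile rank of 41.0 among all genes of that section, and in the control paw 7 of 7, at 51.0. Suprabasal keratins and junction genes numbered 3 of 6 in the arthritis paw (median percentile 57.9) and 6 of 6 in the control paw (22.6). Skeletal muscle markers had median percentiles of 61.2 and 75.1 in the arthritis and control paws. Neuron markers ranked high in every section, at 93.1 in the arthritis paw, 83.7 in the control paw, 93.0 in the brain and 77.7 to 84.0 for the embryo marks, so they did not set the brain apart from the paws. The cell types behind the reads of a spot were not resolved, and fewer cells of a type could not be told apart from fewer marked copies per cell.

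The cornified envelope is the protein shell that replaces the plasma membrane of keratinocytes as they die at the skin surface. Involucrin, encoded by Ivl, forms an early scaffold under the membrane, loricrin (Lor) becomes its main protein, and small proline-rich proteins bridge them once transglutaminases have linked the chains. Late cornified envelope proteins are added last, and filaggrin-2 (Flg2), hornerin (Hrnr) and repetin (Rptn) belong to the S100 fused-type family, which binds keratin filaments and the envelope. These genes stand close together in the epidermal differentiation complex, and they are largely silent outside stratified epithelia. H3K27ac marks active promoters and enhancers, H3K4me3 active promoters, and H3K27me3 genes held silent by Polycomb. In the RefSeq table of assembly GRCm38.p6, all 39 lay on chromosome 3, from Lor at one end to Rptn at the other.

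Promoters were matched in RefSeq (GRCm38.p6) for 38 of the 39 genes, Lce1f being the one without an entry. The window ran from 250 bases before to 50 after the gene's start. Those of 6 genes are shown: Lce3c, Rptn and Sprr2a3, the 3 past 2-fold between the paws, Sprr2a1, a near copy of Sprr2a3, and Lce1i, the highest member in embryo H3K27ac, with its neighbour Lce1h. Capitals mark TATAAA, the core of the TATA box, or TGANTCA, the AP-1 motif, each searched on both strands, and the start and end follow the assembly while the letters follow the gene's strand. Sprr2a1 and Sprr2a2 were identical over the window (100%), so 1 is printed. The first line has Lce1i (chr3:92778850-92779149, minus strand), the second its neighbour Lce1h (chr3:92765016-92765315, minus), then Lce3c (chr3:92944236-92944535, plus), Rptn (chr3:93393449-93393748, plus), Sprr2a3 (chr3:92285054-92285353, plus) and Sprr2a1 (chr3:92215585-92215884, plus).
Lce1i: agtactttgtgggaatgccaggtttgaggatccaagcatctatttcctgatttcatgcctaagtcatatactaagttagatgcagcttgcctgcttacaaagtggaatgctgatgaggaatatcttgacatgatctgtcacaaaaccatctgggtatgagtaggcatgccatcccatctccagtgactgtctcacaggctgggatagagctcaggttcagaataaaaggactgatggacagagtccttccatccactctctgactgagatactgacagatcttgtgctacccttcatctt
Lce1h: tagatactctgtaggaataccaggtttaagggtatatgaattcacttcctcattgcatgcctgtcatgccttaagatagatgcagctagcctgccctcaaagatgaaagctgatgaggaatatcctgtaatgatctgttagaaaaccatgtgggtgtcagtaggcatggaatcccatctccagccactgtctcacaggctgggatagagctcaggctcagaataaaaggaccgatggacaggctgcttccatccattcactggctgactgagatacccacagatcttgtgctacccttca
Lce3c: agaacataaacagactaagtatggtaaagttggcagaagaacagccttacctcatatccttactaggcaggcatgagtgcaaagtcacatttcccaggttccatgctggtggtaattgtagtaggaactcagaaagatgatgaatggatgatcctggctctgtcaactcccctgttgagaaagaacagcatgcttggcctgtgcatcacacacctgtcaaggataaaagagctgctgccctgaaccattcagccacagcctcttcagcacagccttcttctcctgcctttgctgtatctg
Rptn: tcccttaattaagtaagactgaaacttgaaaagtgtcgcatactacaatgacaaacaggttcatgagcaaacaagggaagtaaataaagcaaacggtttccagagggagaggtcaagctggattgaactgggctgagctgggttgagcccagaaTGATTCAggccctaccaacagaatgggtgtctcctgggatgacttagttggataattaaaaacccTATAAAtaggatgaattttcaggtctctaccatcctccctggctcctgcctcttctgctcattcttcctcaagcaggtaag
Sprr2a3: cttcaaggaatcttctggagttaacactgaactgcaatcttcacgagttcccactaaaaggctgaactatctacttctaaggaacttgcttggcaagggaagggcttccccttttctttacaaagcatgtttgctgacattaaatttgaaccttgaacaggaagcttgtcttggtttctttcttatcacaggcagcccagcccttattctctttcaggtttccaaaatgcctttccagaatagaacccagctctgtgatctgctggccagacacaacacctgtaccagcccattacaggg
Sprr2a1: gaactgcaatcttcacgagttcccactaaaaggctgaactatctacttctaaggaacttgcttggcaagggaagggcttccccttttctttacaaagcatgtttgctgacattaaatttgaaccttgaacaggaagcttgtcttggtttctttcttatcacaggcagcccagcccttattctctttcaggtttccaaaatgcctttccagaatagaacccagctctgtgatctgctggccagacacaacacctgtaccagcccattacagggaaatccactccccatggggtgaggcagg

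Both motifs were unevenly spread over the families. TGANTCA was found in 9 of 13 Sprr promoters (69.2%), in 0 of 20 Lce promoters and in 4 of the 5 others (80%), against 7.81% of the 32851 promoters in the RefSeq table. TATAAA was found in 10 of 13 Sprr promoters (76.9%), 4 of 20 Lce promoters (20%) and 4 of the 5 others, against 13.6% of all promoters. Of the 6 printed, only that of Rptn held a match, 1 to each motif. The promoters of Lce1i and Lce1h shared 82.3% of their bases in a global alignment, and those of Lce1i and Lce1j 69.3%. Those of Sprr2a1 and Sprr2a3 shared 272 of 300 bases (90.7%). These 272 bases are 1 identical stretch, and the rest reflects where each window starts, not differing letters. A match is a string of letters and was not tested as a binding site. Genes with the AP-1 motif had a median percentile of 49.2 (5 genes) in the arthritis paw, against 16.4 (3 genes) without it. In the control paw the order was the other way, at 6.63 (13 genes) with the motif against 16.7 (25 genes) without it, and in embryo H3K27ac both medians were 20.4. The brain medians were 34.7 (4 genes) with the motif and 12.96 (7 genes) without it. For embryo H3K27me3 they were 33.3 (11 genes) and 22.0 (23 genes), and for H3K4me3 both were 15.5.

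The median cornified envelope gene carried fewer reads than the median gene in every section, whatever the mark. Ranked by reads among all genes of the same section, their median percentile was 40.9 in the arthritis paw, where 8 genes were held, and 11.7 in the control paw, which held all 39. The brain lay at 22.8, and the embryo at 22.0, 20.4 and 15.5 for H3K27me3, H3K27ac and H3K4me3. The median member had 230.5 reads in the arthritis paw, 48 in the control paw and 70 in the brain, while the median gene of those sections had 274, 142 and 120. In the embryo the median member had 5 reads for H3K27me3, 4 for H3K27ac and 2 for H3K4me3, against 14, 12 and 7 for the median gene. Olfactory receptor genes, which are mostly silent outside the olfactory epithelium, lay at the same place or somewhat lower: 8.32 in the control paw (298 genes), 16.7 in the brain (87), and for the embryo 17.2, 20.4 and 15.5 for H3K27me3, H3K27ac and H3K4me3. The equal ranks for embryo H3K27ac and H3K4me3 are ties, as both medians were 4 and 2 reads. Such counts are too low to tell the 2 groups apart. The arthritis paw was the exception, at 40.9 for the cornified envelope genes against 17.9 for its 76 olfactory receptor genes. It held only 8 of the cornified envelope genes, so this gap is not between the same genes as in the control paw.

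Cornified envelope genes are short, and they ranked higher among genes of their own length. They had a median length of 1784 bases among those held by the arthritis paw and 1675 in the control paw, against 21988 and 19790 for all genes with a length in RefSeq GRCm38.p6. Among genes within 2-fold of the same length, the median percentile was 51.1 in the arthritis paw, 24.0 in the control paw, 28.0 in the brain, and for the embryo 31.5, 32.9 and 21.2 for H3K27me3, H3K27ac and H3K4me3. Of these medians, only that of the arthritis paw reached the middle of the range, and it covers 8 genes alone. By the same measure these 8 genes lay in the control paw at 89.7 (Sprr2a3), 82.9 (Lce3c), 82.6 (Sprr1a) and 77.6 (Sprr2e). The others were there at 59.9 (Rptn), 45.6 (Sprr2h), 34.8 (Lce1g) and 15.9 (Sprr2b).

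**Figure D1:**
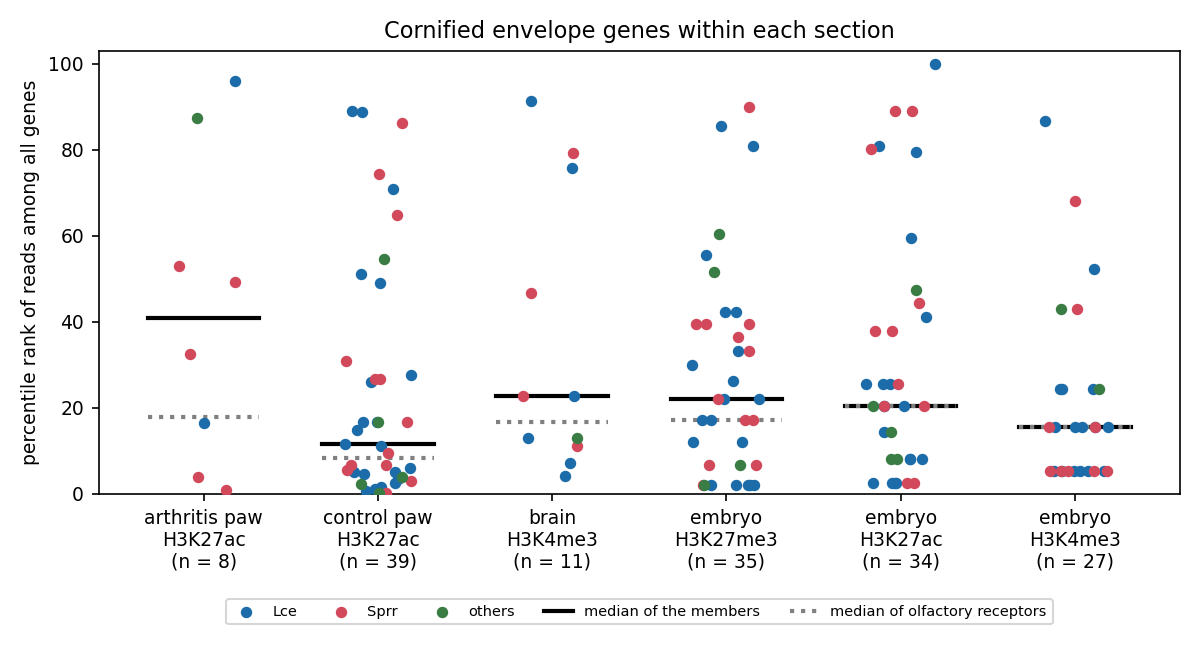
Percentile rank of each cornified envelope gene by reads among all genes of its section (vertical axis), for the 6 sections (horizontal axis), with Lce genes in blue, Sprr genes in red and the others in green. The black line is the median of the genes and the dotted line the median of olfactory receptor genes; the control paw median is 11.7, and Lce1i stands at 99.9 in embryo H3K27ac.

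The 8 genes held by the arthritis paw were among the better covered ones in the control paw. There they had a median of 184.5 reads (36 to 442), against 38 reads (15 to 524) for the 31 genes that the arthritis paw did not hold. Over all genes the same medians were 211 (11130 genes) and 77 (8248 genes). The higher median rank of the arthritis paw therefore covers a different and better covered set of genes.

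A few genes stood far above the rest of the family. Lce3c, a gene of a late cornified envelope group that in humans is induced in injured and psoriatic skin, ranked between the 70.8th and 95.9th percentile in all 6 sections. It had 1662 reads in the arthritis paw, 246 in the control paw, 202 in the brain, and for the embryo 53, 33 and 28 for H3K27me3, H3K27ac and H3K4me3. Sprr1a, an envelope bridging protein, came next with ranks of 53.1 to 89.8. Its reads were 292 in the arthritis paw, 276 in the control paw, 221 in the brain, and 70, 32 and 13 for the 3 embryo marks as above. Rptn ranged more widely, with ranks of 12.96 to 87.4. It had 829 reads in the arthritis paw, 160 in the control paw, 55 in the brain, and 15, 11 and 6 for the embryo marks. Sprr2a3 had the widest range of the 7 genes held everywhere, 1.02 to 86.2, with 59 reads in the arthritis paw, 442 in the control paw, 52 in the brain, and 5, 4 and 1 for the embryo marks. Sprr2e lay between 15.5 and 64.9, Lce1g between 15.5 and 59.5, and Sprr2h between 22.8 and 42.9. Per kilobase of gene, the Lce3c reads came to 1335 in the arthritis paw and 198 in the control paw, against 144 and 27.9 for Rptn and 151 and 143 for Sprr1a.

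The 2 paws were compared to see how H3K27ac over these skin barrier genes differs with joint inflammation. Each gene's mean reads per spot were divided by the mean over all genes held by both sections, and the log2 ratio was taken after a pseudocount of 0.1 was added to both levels, which shrinks the ratios of low genes. Of the 8 genes compared, Lce3c and Rptn were past 2-fold higher in the arthritis paw and Sprr2a3 was past 2-fold lower, while the other 5 lay between -0.14 and 0.66. Past 2-fold means a log2 ratio beyond 1 or -1. Of all 11130 genes compared, 11.6% were past 2-fold higher and 7.88% past 2-fold lower, so 2 and 1 of 8 genes are counts too small to be read against them. The median log2 ratio of the 8 genes was 0.45, against 0.11 for all genes, and 5 of the 8 lay above that value.

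Lce3c had 1662 reads in the arthritis paw and 246 in the control paw. At levels of 3.46 and 0.608 times the mean gene, its log2 ratio was 2.33 (2.16 to 2.50), or 1.47 with a pseudocount of 1. It was read in 698 of 943 spots of the arthritis paw and 181 of 554 spots of the control paw, so the difference was not held in a few spots. Rptn had 829 reads in the arthritis paw and 160 in the control paw, with levels of 1.73 and 0.395. Its log2 ratio was 1.88 (1.68 to 2.09), and it was read in 505 spots of the arthritis paw and 131 of the control paw. With a pseudocount of 1 in place of 0.1 its ratio was 0.97, just under 2-fold.

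Sprr2a3, one of 3 near-identical Sprr2a genes, went the other way. It had 59 reads in the arthritis paw and 442 in the control paw, with levels of 0.123 and 1.09 and a log2 ratio of -2.42 (-2.65 to -2.17). With a pseudocount of 1 it was -0.90. A read was found in 58 of 943 spots of the arthritis paw against 240 of 554 in the control paw. Its near copies Sprr2a1 and Sprr2a2 were held by the control paw and not by the arthritis paw, and how reads were shared among the 3 is not given in the sources used here, so the value for Sprr2a3 is uncertain.

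The remaining 5 genes differed less. Sprr2h had 191 reads in the arthritis paw and 87 in the control paw, a log2 ratio of 0.66 (0.39 to 0.93). Sprr2b had 83 and 36 reads in the arthritis and control paws, at 0.53 (0.21 to 0.83). Lce1g had 130 and 76, at 0.37 (0.08 to 0.65). Sprr2e had 270 and 209 reads in the arthritis and control paws, at 0.10 (-0.12 to 0.33), and Sprr1a 292 and 276, at -0.14 (-0.35 to 0.07). The intervals of Sprr2e and Sprr1a include 0, but they do not cover the uneven array columns of the control paw described below.

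**Figure D2:**
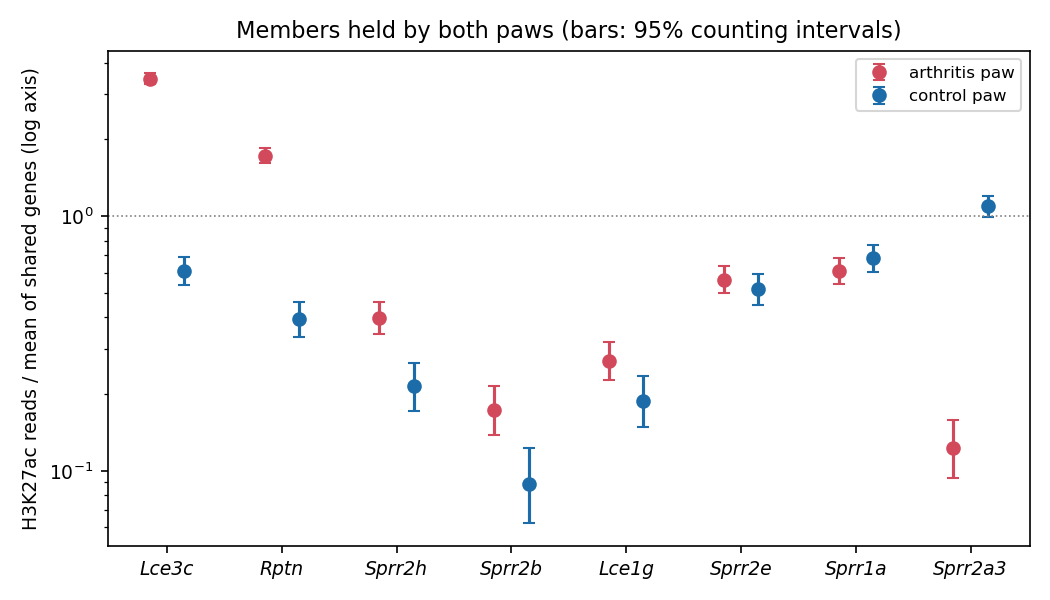
H3K27ac level of the 8 genes held by both paws, as reads divided by the mean over the shared genes (log axis), with the arthritis paw in red and the control paw in blue. Bars are 95% counting intervals; Lce3c stands at 3.46 in the arthritis paw and 0.608 in the control paw, and Sprr2a3 at 0.123 and 1.09.

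Other genes of the cornification programme did not move one way between the paws. Of 23 enzymes and structural partners, 15 were held by both, 1 was past 2-fold higher in the arthritis paw and 1 lower, and their median log2 ratio was -0.18. Over all genes, 11.6% were past 2-fold higher and 7.88% lower, with a median of 0.11. The higher one was Abca12, the lipid transporter that fills the lamellar bodies of the upper epidermis (1.07, 570 reads in the arthritis paw and 208 in the control paw). The lower one was Crct1, a small gene beside Lce1m (-1.81, 128 and 478 reads in the arthritis and control paws). The median of 13 regulators held by both paws, of 15, was -0.01. Klf4, a transcription factor needed for the skin barrier, was past 2-fold higher (1.58), Rora, a nuclear receptor, was past 2-fold lower (-1.64), and Trp63, the master factor of stratified epithelia, lay at 0.85. Of 13 S100 genes of the complex, 7 were held by both paws, with a median of -0.01. S100a6, a calcium-binding protein of many cell types, was at 3.11 (1176 reads in the arthritis paw and 79 in the control paw), and S100a16 at -1.21. Of 10 further genes of the complex and its borders, 5 were held by both, with a median of 0.73. They included Smcp, a sperm mitochondrial protein whose gene lies next to Ivl, at 2.35 (1238 reads in the arthritis paw and 172 in the control paw), and Them5 at -1.67.

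Markers of keratinocytes, the cells that form the envelope, were counted in the same way. Of the basal keratinocyte markers held by both paws, 0 of 3 were past 2-fold, with a median log2 ratio of -0.02. Of the suprabasal markers 1 of 3 was past 2-fold, with a median of 0.61. The basal list took 1.75 of 10000 reads in the arthritis paw and 2.08 in the control paw, and the suprabasal list 1.61 and 0.916, with 3 markers of each held by the arthritis paw; Krt14 was not among them. The marker past 2-fold was Krt10, a keratin of the layers above the basal one, at 1.20 (326 reads in the arthritis paw and 97 in the control paw), while Krt1 was at 0.61 and Krt2 at -0.33. The part of epidermal content in the Lce3c and Rptn values was not tested. Of 5 skeletal muscle markers (median 0.70), Mylpf (1.48) and Atp2a1 (1.70) were past 2-fold higher in the arthritis paw, while Ckm and Tnnt3 were both at -0.39. Of 5 neuron markers (median 0.35), Slc17a7 (1.18) was past 2-fold, while Snap25 was at -0.61 and Rbfox3 at -0.09. The part of these cell types in the results was not tested.

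Skin lies at the rim of a paw section, so the genes' share of reads was also taken by distance from the section's edge. In the arthritis paw the 8 genes took 6.55 of 10000 reads in the outer 2 layers of spots (6.19 to 6.92) and 6.60 in the inner layers (6.33 to 6.87). In the control paw the 39 genes took 6.74 (6.43 to 7.06) in the outer layers and 6.58 (6.30 to 6.86) in the inner ones. No enrichment at the edge was detectable in either paw. Keratinocyte markers were equally flat, at 3.35 in the outer and 3.37 in the inner layers of the arthritis paw (6 genes) and 2.87 and 3.09 in those of the control paw (13 genes). Over single spots, the genes' summed reads followed the depth of the spot, with Pearson correlations of 0.67 in the arthritis paw and 0.83 in the control paw, where spots share their library. The spread around that depth was close to counting error, with a chi-square per degree of freedom of 1.10 and 1.17.

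**Figure D3:**
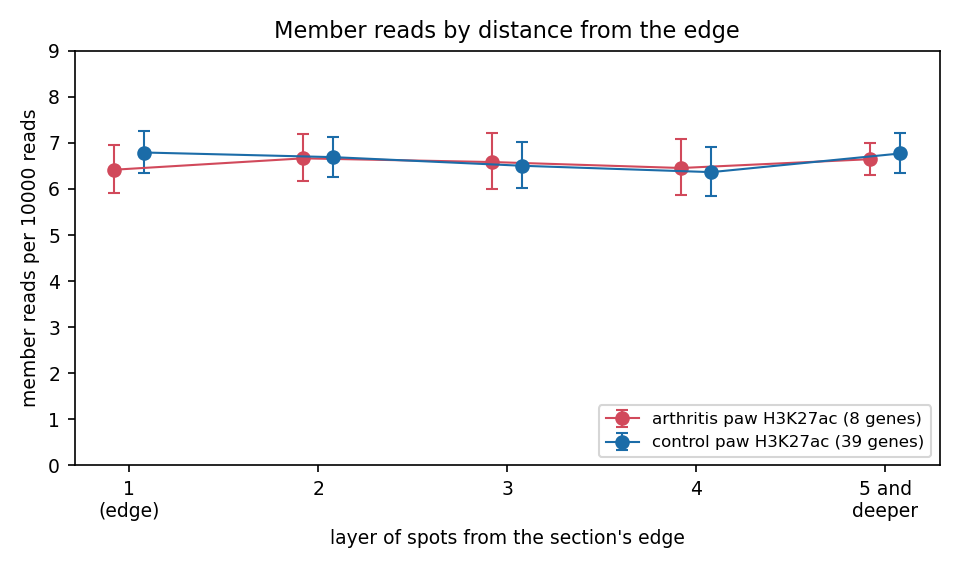
Reads in cornified envelope genes per 10000 reads (vertical axis) by layer of spots counted from the section's edge (horizontal axis), in the arthritis paw (red, 8 genes) and the control paw (blue, 39 genes). Bars are 95% counting intervals; values lie between 6.37 and 6.79 in all layers of both paws.

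The control paw, which held every member, shows how H3K27ac was spread within the complex. Lce1m had the most reads (524), followed by Lce3b (514), Sprr2a3 (442), Sprr1a (276), Lce3c (246), Sprr2e (209), Rptn (160), Lce3e (146) and Lce3d (139), and every other gene had 15 to 87 reads. Only 8 of the 39 genes were above the section's middle rank and 25 were below the 25th percentile. Classical envelope proteins were among the low ones: Lor had 57 reads (percentile 16.7), Hrnr 32 (3.89), Ivl 28 (2.26) and Flg2 15 (0.124). Some reads may have been counted for more than 1 gene. Of the reads of Lce1m and Crct1, 89.9% were matched in number in the same spots, as were 82.2% of those of Lce3d (139) and Lce3e (146) and 100% of those of Sprr2a1 and Sprr2a2 (77 each), so such pairs may rest on the same reads. In 1 of 4 array columns (1, 5, 9 and so on), which together held 12.9% of all reads of that paw, Sprr2e had 35.9% of its reads and Sprr1a 24.3%, while Lce3b had 5.25% and Sprr2a3 5.43%. Without those columns the ratios of Lce3c, Rptn and Sprr2a3 between the paws stayed within their intervals. The ratios of Sprr2e and Sprr1a without them are not given here, so those 2 values are uncertain.

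The comparison of control paw and embryo H3K27ac sets adult tissue with skin against an embryo whose epidermis has not yet stratified. It was made for 34 genes, 32 of which had at least 20 reads in 1 of the sections. The median log2 ratio was 0.31, against 0.20 for all genes, and 19 of the 34 lay above that. In the control paw 4 genes were past 2-fold higher and 3 lower, against 14.1% and 8.64% of all genes, so the counts are close to the background. Lce3b had 514 reads in the control paw and 5 in the embryo, a ratio of 2.67 (1.78 to 3.48). Sprr2a3 had 442 and 4 reads in the control paw and embryo, at 2.66 (1.72 to 3.46), and Lce3d 139 and 3, at 1.41 (0.40 to 2.18), or 0.39 with a pseudocount of 1. Lce1d was at 1.01 with 54 reads in the control paw and 1 in the embryo, and its interval (-0.14 to 1.45) includes 0; it was 0.18 with a pseudocount of 1 and 0.82 relative to the median of all genes. The lower genes were Sprr2a1 and Sprr2a2, with 77 reads each in the control paw and 50 each in the embryo (-2.40, -2.85 to -1.93), which shared all their reads and count as 1 observation, and Lce1i. Sprr2a3 is a near copy of Sprr2a1 and Sprr2a2, yet its ratio had the opposite sign. How reads were shared among these 3 genes is not given in the sources used here. Their ratios are therefore uncertain and cannot be read as separate differences between genes.

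Lce1i was the one gene of the family among the highest of any section. It had 47 reads in the control paw and 1394 in embryo H3K27ac, a ratio of -7.59. In embryo H3K27ac it ranked 14 of 18943 genes, at 48.1 times the mean gene, and it was read in 243 of 251 spots with up to 19 reads in a spot. Its number is a lower bound, since 54.2% of its reads lay in spots and ranks where the recovery of reads is no longer exact, so the ratio may be larger in size. Beside it, Lce1h and Lce1j had 2 reads each in that section. Its reads followed the depth of the spots (Pearson correlation 0.84). With Lce1i giving 1394 of their 1714 reads, the 34 cornified envelope genes took 31.2 of 10000 reads in embryo H3K27ac (29.8 to 32.7). The other embryo sections had 4.76 for H3K27me3 (35 genes) and 2.43 for H3K4me3 (27 genes). The share was 6.58 in the arthritis paw (8 genes), 6.65 in the control paw (39 genes) and 6.25 in the brain (11 genes). These sums cover different numbers of genes, so near-equal shares are not equal levels per gene. The median member stood at 0.48 times the mean gene in the arthritis paw, 0.16 in the control paw and 0.39 in the brain.

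The classical envelope genes were scarcely covered in embryo H3K27ac, and their ratios to the control paw had wide intervals. The control paw and the embryo had 57 and 2 reads of Lor (0.74, -0.35 to 1.40), 32 and 2 of Hrnr (0.26, -0.82 to 0.94), 28 and 3 of Ivl (-0.11, -1.12 to 0.69) and 15 and 4 of Flg2 (-0.69, -1.59 to 0.17). For Rptn the numbers were 160 and 11 (0.34, -0.39 to 1.10). All 5 intervals include 0. With the deposited values, Lor (1.67) and Hrnr (1.75) were past 2-fold higher in the control paw, and Flg2 (-1.90) was past 2-fold lower. Ivl was then at 0.00 and Rptn at 0.74. Of 21 cornification enzymes and partners held by both sections, 3 were past 2-fold higher in the control paw (Aloxe3 at 1.11, and Cnfn and Sbsn, which had 1 and 3 reads in the embryo) and 1 lower (Tgm1 -1.13, the membrane-bound transglutaminase that links the envelope), with a median of 0.26. Of 14 regulators 0 were higher and 2 lower, Rora at -2.96 and Maf at -1.03. Of 13 S100 genes 0 were higher and 3 lower, with S100a3 lowest at -2.60. Over all genes, 14.1% were past 2-fold higher in the control paw and 8.64% lower, with a median of 0.20.

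In the embryo the 3 marks were compared to ask how these genes stood for the Polycomb mark. For H3K27me3 over H3K27ac the median log2 ratio of 30 genes was -0.10, against -0.12 for all genes. There 3 of the 30 were past 2-fold higher and 4 lower, against 10.4% and 14.1% of all genes, and only 8 of the 30 had at least 20 reads in 1 of the sections. The median of the family was close to that of all genes. However, -0.10 is also the ratio of a gene with 1 read for each mark, such as Lce1l. A median of such low counts cannot show how the family stood for the Polycomb mark. Lce1a2 had 42 reads for H3K27me3 and 5 for H3K27ac (2.09, 1.09 to 2.97). Lor had 20 and 2 reads for H3K27me3 and H3K27ac (1.83, 0.62 to 2.57), and Lce1h had 11 and 2 (1.16, -0.12 to 1.95). Lower were Lce1i, with 6 reads for H3K27me3 and 1394 for H3K27ac (-7.58), Sprr2a1 and Sprr2a2, with 10 and 50 each (-2.37, -3.14 to -1.57), and Lce1m, with 17 and 31 (-1.14, -1.91 to -0.37). All 31 H3K27ac reads of Lce1m were matched in number by Crct1 in the same spots (100%), so these 2 genes cannot be told apart there. With a pseudocount of 1, Lce1a2 lay at 0.81, Lor at 0.49 and Lce1m at -0.53, all under 2-fold. Rptn was at 0.00 with 15 and 11 reads for H3K27me3 and H3K27ac, and Ivl and Hrnr, with 1 to 3 reads, were both at -0.43 with intervals that include 0.

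H3K27me3 was then set against H3K4me3, the pair of marks that together define bivalent promoters. The median ratio of 25 genes was 0.17, against 0.08 for all genes. Here 3 of 25 were past 2-fold higher and 0 lower, against 15.1% and 10.4% of all genes. Sprr1a had 70 reads for H3K27me3 and 13 for H3K4me3, a ratio of 1.40 (0.63 to 2.21), or 0.77 with a pseudocount of 1, and was one of 2 genes with at least 20 reads in 1 of the sections. The other was Lce3c, with 53 and 28 reads for H3K27me3 and H3K4me3, at 0.04. Lce1h (11 reads for H3K27me3 and 1 for H3K4me3, -0.13 to 1.94) and Sprr2b (8 and 1, -0.46 to 1.64) were past 2-fold with intervals that include 0. Ivl lay at -0.65 (-1.54 to 0.61) and Rptn at 0.34 (-0.78 to 1.42).

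For H3K27ac over H3K4me3 the median of 23 genes was 0.34, against 0.20 for all genes. In that pair 5 were past 2-fold higher and 0 lower, against 17.8% and 9.17% of all genes. Lce1i had 1394 reads for H3K27ac and 1 for H3K4me3 (8.31, 7.05 to 8.82) and Lce1m 31 and 8 (1.30, 0.33 to 2.28), the second at 0.58 with a pseudocount of 1. The 31 H3K27ac reads of Lce1m are those that could not be told apart from Crct1. Lce1g (16 reads for H3K27ac and 2 for H3K4me3), Sprr3 (8 and 1) and Sprr2e (10 and 2) had fewer than 20 reads in both. Rptn was at 0.34 (-0.84 to 1.48) and Ivl at -0.23 (-1.44 to 1.06). Comparisons that share a section are not separate evidence.

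**Figure D4:**
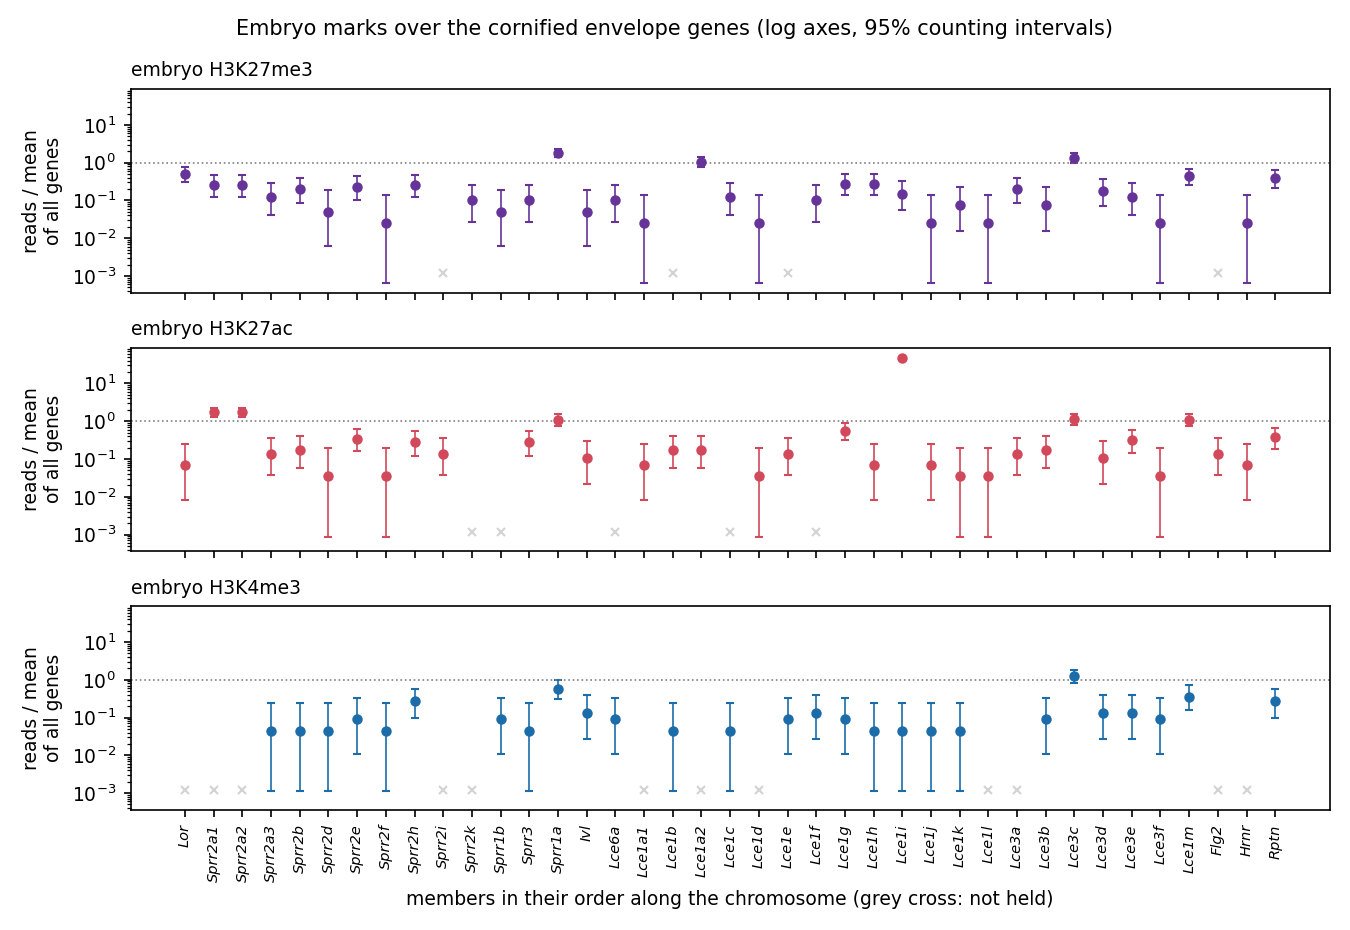
Reads of each cornified envelope gene divided by the mean of all genes (log axis) in embryo H3K27me3, H3K27ac and H3K4me3, with genes in their order along the chromosome. Bars are 95% counting intervals and grey crosses are genes not held; Lce1i stands at 48.1 for H3K27ac, and its neighbours Lce1h and Lce1j have 2 reads each.

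The regulators and enzymes of the programme were better covered in the embryo than the envelope genes, with median percentiles of 64.2, 64.3 and 65.6 for regulators and 51.5, 44.4 and 47.9 for enzymes and partners (H3K27me3, H3K27ac, H3K4me3). Trp63, which commits the surface ectoderm to an epidermal fate, had 81 reads for H3K27me3, 139 for H3K27ac and 12 for H3K4me3, with ratios of -1.19 for H3K27me3 over H3K27ac, 1.70 for H3K27me3 over H3K4me3 and 2.89 for H3K27ac over H3K4me3. Grhl3, a factor of late epidermal differentiation, lay toward H3K27me3 at 1.59 over H3K27ac (45 and 9 reads). Among enzymes the kallikreins Klk7 and Klk5, proteases of shedding skin, were at 2.18 and 1.21 for H3K27me3 over H3K27ac, and 2.35 and 2.41 over H3K4me3. In all, 2 of 21 enzymes and partners were past 2-fold higher for H3K27me3 over H3K27ac and 3 lower, with a median of 0.04. Among regulators 1 of 14 was higher and 3 lower, with a median of -0.24, and among S100 genes 1 of 13 was higher and 4 lower, with a median of -0.44. Over all genes, 10.4% were past 2-fold higher for H3K27me3 over H3K27ac and 14.1% lower, with a median of -0.12.

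The brain has no cornified layer and served as a tissue that forms no cornified envelope. For H3K4me3 in brain over embryo the median ratio of 10 genes was 1.04, and all genes compared also had a median above 0, at 0.66. Of the 10, 5 were past 2-fold higher and 0 lower, against 31.4% and 5.72% of all genes. Sprr2e had 113 reads in the brain and 2 in the embryo (2.07, 0.97 to 2.75), Lce1k 55 and 1 (1.56, 0.37 to 2.01), Sprr2a3 52 and 1 (1.50, 0.31 to 1.95) and Lce1g 70 and 2 (1.49, 0.38 to 2.18). Sprr1a had 221 reads in the brain and 13 in the embryo (1.21, 0.51 to 1.93). With a pseudocount of 1 all 5 were under 2-fold, at 0.60 for Sprr2e, 0.59 for Sprr1a, 0.37 for Lce1g, 0.33 for Lce1k and 0.31 for Sprr2a3. Relative to the median of all genes, Sprr1a (0.55), Lce1g (0.83), Sprr2a3 (0.84) and Lce1k (0.90) were under 2-fold as well. Lce3c, at 0.12, and Rptn, at 0.35, lay below the median of all genes.

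Within the brain section, 3 genes stood above the middle rank. Lce3a led with 351 reads (percentile 91.4), and Sprr1a and Lce3c followed with 221 and 202 reads at 79.3 and 75.7. In the control paw Lce3a had 35 reads (5.15), but there the mark was H3K27ac and more genes were ranked. Tissue and mark cannot be told apart in that contrast. The other 8 had 39 to 113 reads, 7 of them below the 25th percentile. The genes took 6.46 of 10000 reads in the outer 2 layers of the brain and 6.21 in the inner layers, with overlapping intervals (5.64 to 7.36 and 5.84 to 6.60). Of 13 cornification enzymes and partners 7 were past 2-fold higher in the brain and 0 lower, with a median of 1.15, led by Cdsn, which encodes corneodesmosin of the junctions between dead keratinocytes, at 1.77 (245 reads in the brain and 9 in the embryo). Of 12 regulators 2 were higher and 0 lower, with a median of 0.64. Over all genes of that comparison, 31.4% were past 2-fold higher in the brain and 5.72% lower, with a median of 0.66.

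**Figure D5:**
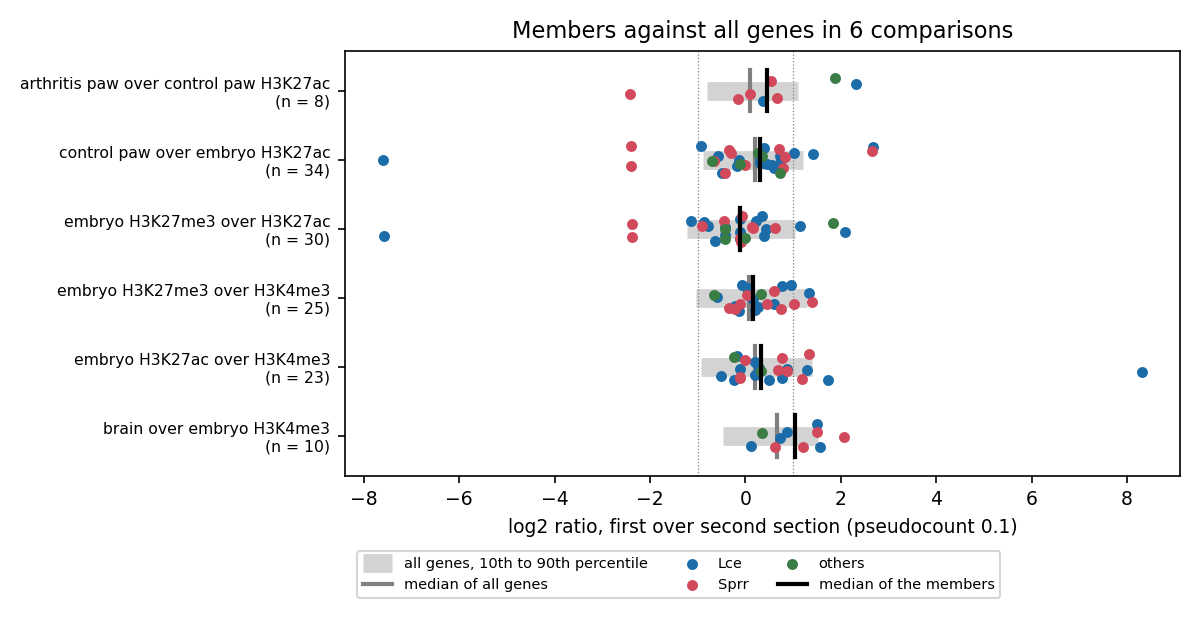
Log2 ratio of each cornified envelope gene in the 6 comparisons (horizontal axis, pseudocount 0.1), with Lce genes in blue, Sprr genes in red and the others in green. Grey bars run from the 10th to the 90th percentile of all genes, grey lines are the median of all genes and black lines that of the cornified envelope genes (0.45 in arthritis over control paw, against 0.11), and dotted lines mark 2-fold.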

How the data were processed

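Values were deposited for 6 sections, 1 for each group, as a signal per gene and array spot that the authors had quantile-normalised. The submitters' processing notes name Bowtie2, featureCounts, MACS2 and the builds hg19 and mm9; their versions and roles, and the feature counted, are not given in the sources used. Because ties between genes had been broken by gene order, reads were recovered from the tied ranks, each fall in the order marking 1 further read. This was exact up to the first count held by fewer than 5 genes, and a sum with over 10% of its reads beyond that is a lower bound. Recovered reads made up 92.9% to 95.4% of the common list's total, with 86.3% to 95.2% of them in the zone taken as exact. Rank by rank they equalled that list at 99.5% of ranks in the arthritis paw and 99.3% in the control paw. The share was 76.5% in the brain and 88.1% to 92.7% in the embryo sections, so low counts there are less certain. They replaced the deposited values because earlier results showed these to depend on gene order, and the recovery was tested on simulated data.

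Levels were means per spot divided by the mean over genes. Ratios used a pseudocount of 0.1, and called means past 2-fold. Intervals are at 95%, and PCR copies are not independent molecules. With 1 section per group no test was run. The depth was 16 to 34488 reads per spot (section medians 1179 to 10114.5). Python 3.11.15, numpy 2.4.6, pandas 2.3.3, scipy 1.17.1 and Biopython 1.88 were used. The members, the lists and the analysis by layers were chosen with earlier results of these data known. Named were genes past 2-fold with at least 20 reads in 1 section, up to 10 in each direction, and Flg, Flg2, Lor, Ivl, Hrnr, Rptn and Tchh wherever both sections held them. Other members were named to account for them after their values were seen, as were genes of the pathway lists. Further lists of markers for hair follicle, cartilage, bone, neutrophil, macrophage and fibroblast were computed. Between the paws, their median log2 ratios were -0.02 (hair follicle, 6 genes), -0.37 (cartilage, 2), 0.08 (bone, 4), -0.57 (neutrophil, 4), 0.26 (macrophage, 1) and -0.08 (fibroblast, 3). Alternatives were the deposited values, a pseudocount of 1, a filter on low genes, even or odd array columns alone, shares of spots and means without the 1% highest spots. After the data were seen, a scale set by the median gene, Sprr2a1 and Sprr2a2 counted once, the control paw without a set of columns, and ranks among genes of like length were added.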

Additional observations from a re-analysis of the deposited data

How the results depend on the processing

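The median log2 ratio of arthritis over control paw was 0.10 with a pseudocount of 1 and 0.84 with genes under the median level of both sections left out, which left 4 genes. For control paw over embryo it ran over all settings from -0.04 (even array columns) to 0.65 (deposited values), and for brain over embryo from 0.25 (pseudocount of 1) to 1.53 (even columns). Within the embryo it ran from -0.67 to 0.01 for H3K27me3 over H3K27ac, from 0.00 to 0.40 for H3K27me3 over H3K4me3 and from 0.05 to 1.23 for H3K27ac over H3K4me3. For the arthritis paw the median percentile rank was 26.2 with the deposited values and 51.1 among genes of like length, and for the control paw it was 24.0 among genes of like length. No counting interval was computed for a median. Of 313 values of named genes under other settings, 264 stayed within the gene's interval, 49 lay outside it, and 0 of those that were past 2-fold changed sign. A pseudocount of 1 took Rptn (0.97) and Sprr2a3 (-0.90) under 2-fold in arthritis over control paw, Lce3d (0.39) and Lce1d (0.18) in control paw over embryo, Lce1a2 (0.81), Lor (0.49) and Lce1m (-0.53) in embryo H3K27me3 over H3K27ac, Sprr1a (0.77) in H3K27me3 over H3K4me3, Lce1m (0.58) in H3K27ac over H3K4me3, and all 5 called genes in brain over embryo (0.31 to 0.60). Under 2-fold by other settings were Lce3d (0.84, deposited values) and Lce1d (0.31, odd columns) in control paw over embryo, Lce1m (-0.58, odd columns) in H3K27me3 over H3K27ac, and Sprr1a in brain over embryo (0.78 in odd columns, 0.92 by share of spots). The value of Rptn, which was not past 2-fold, was -0.97 in embryo H3K27ac over H3K4me3 and -0.70 in brain over embryo in odd array columns alone, and 2.63 and 2.08 in even ones; the cause was not tested. Depth limits the embryo most, where 31 of 35 (H3K27me3), 28 of 34 (H3K27ac) and 26 of 27 (H3K4me3) genes had under 20 reads. No paired analysis was possible because each group is 1 section.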
